A study of Mus musculus with 9 samples.

Results

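AP-1 is a family of transcription factors that bind DNA as pairs of proteins joined through a leucine zipper. The 10 genes described here encode the FOS proteins Fos, Fosb, Fosl1 and Fosl2, the JUN proteins Jun, Junb and Jund, the related factor Atf3, and the small MAF proteins Maff and Mafk. They were taken by symbol from the GENCODE M21 annotation of mouse genes, and all 10 are among the 55536 genes counted in each library and among the 16039 genes that passed the filter on low counts. JUN proteins can pair with each other or with a FOS protein, whereas FOS proteins need a JUN partner. Many of these genes are early response genes, switched on within minutes by growth factors, cytokines, injury or stress through MAP kinases and without new protein synthesis. Small MAF proteins have a zipper but no activation domain, so that their effect depends on the partner.

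RNA in bulk from quadriceps was sequenced from mice of the C57BL/6 strain aged 6 weeks. In all of them surgery had removed a piece of the muscle, an injury called volumetric muscle loss. There were 5 libraries labelled IL17ra-/-, a genotype that lacks a subunit of the receptor for interleukin-17 cytokines, and 4 labelled wild type. The labels disagree on what both groups received and when they were collected. The sample annotation names saline and a harvest 1 week after surgery, and the extraction protocol names PCL and 6 weeks. The design text speaks of animals in triplicate, fewer than the libraries labelled, and no label ties a library to an animal, a litter, a day or a sequencing run, so that replicate spread may be technical. What stretch of Il17ra the allele lacks is not stated in them. Fewer cells of a type and less RNA per cell cannot be told apart in bulk RNA either.

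Libraries held 31294089 to 46435401 counts. Il17ra, the targeted gene (chr6:120463247-120487559 on GRCm38), stood at 200, 185, 181, 284 and 192 CPM (counts relative to library size, scaled for library composition) in the libraries labelled IL17ra-/- 1 to 5, against 75.9, 107, 85.4 and 119 CPM in those labelled wild type 1 to 4. The targeted transcript was thus higher where the label names its loss (log2 fold change 1.11, SE 0.17, edgeR adjusted p = 0.00208), and every direction given here refers to the labels as deposited. Transcripts of connective tissue cells were abundant, with the summed markers of fibro-adipogenic progenitors at 40700 to 54900 CPM in those labelled IL17ra-/- and at 48100 to 52600 CPM in those labelled wild type. Of these 8 markers, 1 was lower, Pi16 (−0.56, edgeR adjusted p = 0.0207), and none was higher. For this and the marker counts that follow, 1.71% of all tested genes were called lower and 1.35% higher. Muscle fibre markers summed to 3130 to 4130 CPM in libraries labelled IL17ra-/- and 1100 to 2730 CPM in those labelled wild type, with 4 of the 10 higher and none lower. Leukocyte markers summed to 13 to 21 CPM in libraries labelled IL17ra-/- and 23.8 to 41.1 CPM in those labelled wild type. Of these 12 markers, 7 stayed under 1 CPM in every library, among them the pan-leukocyte marker Ptprc, and 1 of the 7 tested, Cd68, was lower, at 2.58 ± 1.01 CPM (SD, n = 5) in libraries labelled IL17ra-/- and 17.9 ± 5.2 CPM (SD, n = 4) in those labelled wild type. The other tested leukocyte markers did not pass, 5 of the 7 had positive log2 fold changes, and the list median was 0.75, opposite in sign to the difference of the sums. In every library, muscle fibre and leukocyte markers summed to far less than those of fibro-adipogenic progenitors. Levels given here may therefore not be those of whole muscle. On the first principal component of all genes, the library labelled wild type 2 stood apart from the other 8. On the second, it was the library labelled IL17ra-/- 1.

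Promoters of AP-1 genes commonly hold a cAMP response element or a variant of it, a site that dimers of JUN and ATF proteins or CREB can bind. The last 120 bases before a RefSeq transcript start are shown for Atf3, Maff and Fosb, whose transcripts were lower in the libraries labelled IL17ra-/-, and for Fos and Jun, whose transcripts did not pass the test, so that both kinds can be read side by side. The sequences are from RefSeq on GRCm38.p6. Maff has further RefSeq starts, and the start shown is the one with the full element TGACGTCA. No match was found before its start at chr15:79346621. Fosl2, whose transcripts were lower too, had no match and is not shown. Capitals mark matches on either strand to TGACG, to TGACGTCA or TTACGTCA, which contain it, or to TGACATCA, a variant that does not.
Atf3 (chr1:191183334-191183453, minus strand): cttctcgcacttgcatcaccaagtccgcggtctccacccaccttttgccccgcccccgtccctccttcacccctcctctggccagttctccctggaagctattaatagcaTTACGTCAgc
Maff (chr15:79347400-79347519, plus strand): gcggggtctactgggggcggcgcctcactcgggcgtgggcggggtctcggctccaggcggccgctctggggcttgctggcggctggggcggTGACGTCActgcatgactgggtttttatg
Fosb (chr7:19310046-19310165, minus strand): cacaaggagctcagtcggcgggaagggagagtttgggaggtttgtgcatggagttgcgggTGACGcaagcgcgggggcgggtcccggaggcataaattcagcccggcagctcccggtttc
Fos (chr12:85473770-85473889, plus strand): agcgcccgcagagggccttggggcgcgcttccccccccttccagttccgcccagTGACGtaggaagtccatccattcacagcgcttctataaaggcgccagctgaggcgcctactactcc
Jun (chr4:95052223-95052342, minus strand): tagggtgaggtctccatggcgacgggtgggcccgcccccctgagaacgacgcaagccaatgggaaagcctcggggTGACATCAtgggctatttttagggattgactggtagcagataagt

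A promoter was at hand for 9 of the 10 members, and the 250 bases before each start were searched on both strands. The RefSeq start lay 1210 bases from the nearest GENCODE start for Jund and 299 bases for Fosl2, and all of the last 120 bases before the Fosl2 start lie in a GENCODE exon. Both windows are counted among the 9. TGACG occurred for 6 of the 9, namely Atf3, Fos, Fosb, Junb, Maff and Mafk, and in 17.8% of all 32851 promoter windows. A member counts here if any of its windows matched, and Maff has several, whereas the shares of all promoters are per window. The full element TGACGTCA occurred for Maff, at 29 bases before the start that is shown, and in 1.55% of all windows. TTACGTCA occurred for Atf3 (0.447% of all windows), and TGACATCA for Jun, at 45 bases before its start, and for another start of Maff (2.93%). The AP-1 consensus TGACTCA was found for none of the 9 and in 4.46% of all windows. The CArG box of serum response factor was likewise found for none of the 9 (1.47% of all windows), and TATAAA for Fos (12.4%). Sites farther than 250 bases before a start were not searched, so that a gene without a match here may still have one. Among the genes whose transcripts were lower, TGACG was thus found for Atf3, Fosb and Maff but not for Fosl2. Among those whose transcripts did not pass, it was found for Fos, Junb and Mafk but not for Jun or Jund.

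Of the 10 members, 4 were lower in the libraries labelled IL17ra-/- and none was higher, at an adjusted p under 0.05 in edgeR's quasi-likelihood test over all tested genes. Over all tested genes 1.71% were called lower and 1.35% higher, 3.06% in all. The 4 were Atf3, Maff, Fosl2 and Fosb. For these same 4 the groups did not overlap, which was the case for 4.56% of all tested genes in this direction and for 4.63% in the other. The fitted log2 fold change was negative for all 10 members, against 50.3% of all tested genes, and its median was −0.64 over the members and −0.003 over all tested genes. Both the count and the member median include Fosl1, which was barely detected (log2 fold change −1.34, SE 1.30).

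**Figure D1:**
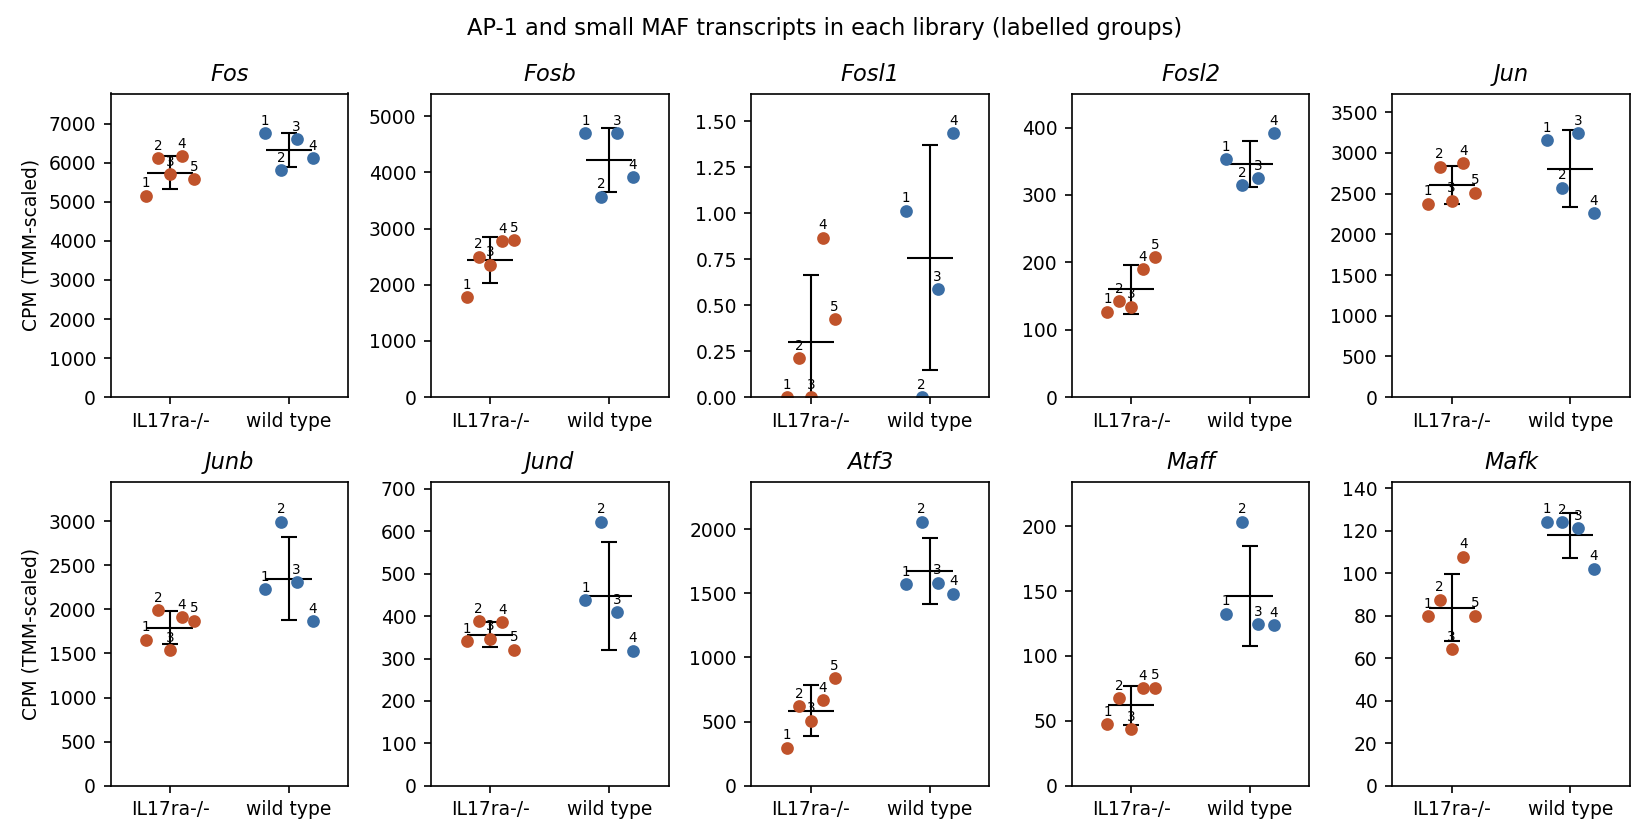
Composition-scaled CPM (vertical axes, from 0) of the 10 members in each library, with libraries labelled IL17ra-/- in orange on the left and wild type in blue on the right. Digits give the replicate, the horizontal bar the mean and the whiskers the SD. Orange and blue points do not overlap for Fosb, Fosl2, Atf3 and Maff.

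Among the FOS genes, the most abundant member did not pass and 2 of its relatives fell. Fos (chr12:85473890-85477273), whose protein is the classical partner of JUN, stood at 5161, 6112, 5713, 6175 and 5584 CPM in the libraries labelled IL17ra-/- 1 to 5, against 6761, 5818, 6599 and 6120 CPM in those labelled wild type 1 to 4. The groups overlapped, and the highest of the libraries labelled IL17ra-/- lay above the lowest 2 of those labelled wild type. The log2 fold change was −0.14 (SE 0.10, adjusted p = 0.524), with an approximate 95% interval of −0.33 to 0.05.

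Fosb (chr7:19302696-19310051) encodes a FOS protein that, like Fos, carries an activation domain. It stood at 1781, 2503, 2361, 2778 and 2798 CPM in the libraries labelled IL17ra-/-, against 4701, 3568, 4696 and 3917 CPM in those labelled wild type. Every library labelled IL17ra-/- lay below every library labelled wild type, and replicate 1 was the lowest. The log2 fold change of Fosb was −0.79 (SE 0.14, edgeR adjusted p = 0.00717).

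Fosl2 (chr5:32135801-32157842) encodes FRA2, a FOS protein without a strong activation domain that is linked to fibrosis in mice. Its values were 127, 143, 134, 190 and 208 CPM in the libraries labelled IL17ra-/-, against 353, 314, 325 and 392 CPM in those labelled wild type. The highest value with the IL17ra-/- label stayed below the lowest with the wild type label. The mean was 160 ± 36.3 CPM (SD, n = 5) in libraries labelled IL17ra-/- and 346 ± 34.6 CPM (SD, n = 4) in those labelled wild type (log2 fold change −1.11, SE 0.15, adjusted p = 0.00102).

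Fosl1 (chr19:5447547-5455946), the gene of FRA1, was barely detected. It had 0, 10, 0, 32 and 18 counts in the libraries labelled IL17ra-/- 1 to 5, against 37, 0, 21 and 50 counts in those labelled wild type 1 to 4. A count of 3 corresponds to 0.0646 to 0.0959 CPM in these libraries, and no difference was detectable at this depth (adjusted p = 0.66). Of its exon bases, 57.2% are shared with Ccdc85b on the other strand, and reads there count for neither gene.

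None of the JUN genes passed the test. Jun (chr4:95049034-95052222), the founding member of the family, stood at 2378, 2831, 2412, 2871 and 2513 CPM in the libraries labelled IL17ra-/-, against 3155, 2573, 3243 and 2262 CPM in those labelled wild type. The lowest of all 9 values was in the library labelled wild type 4, and all libraries labelled IL17ra-/- lay within the range of those labelled wild type (log2 fold change −0.11, SE 0.13, adjusted p = 0.711, approximate 95% interval −0.35 to 0.13). Junb (chr8:84974484-84978718), whose protein can restrain Jun, had 1655, 1987, 1539, 1909 and 1870 CPM in the libraries labelled IL17ra-/-, against 2226, 2995, 2306 and 1867 CPM in those labelled wild type. Only the wild type 4 library reached down into the other group (−0.39, SE 0.14, edgeR adjusted p = 0.162). Jund (chr8:70698949-70700616), the member that most cells express without stimulation, had 341, 388, 347, 385 and 321 CPM in the libraries labelled IL17ra-/-, against 438, 623, 410 and 319 CPM in those labelled wild type. Here the lowest of all 9 values was again wild type 4 (−0.33, SE 0.16, edgeR adjusted p = 0.327).

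The library labelled wild type 2 had the highest Junb and Jund of all 9, at 2995 and 623 CPM. Without it, the log2 fold changes were −0.25 for Junb (adjusted p = 0.269) and −0.12 for Jund (adjusted p = 0.68). Exon bases shared with a neighbour on the other strand make up 52.6% of Jund (with Gm11175, at 0 counts in every library), 7.52% of Junb (with Prdx2) and 7.28% of Jun (with Junos). Values of these genes leave out reads from the shared bases. Of these neighbours with shared exon bases, those that could be tested did not pass, with edgeR adjusted p-values of 0.67 for Prdx2 and 0.877 for Junos. Neighbours without shared exon bases are not covered by this.

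Atf3 had the largest fold change of the 9 members that were detected in every library. The gene lies at chr1:191170296-191218039, and its protein is a stress-induced factor of the ATF and CREB family that pairs with JUN proteins and often represses. Values were 297, 619, 506, 669 and 840 CPM in the libraries labelled IL17ra-/- 1 to 5, against 1570, 2059, 1584 and 1496 CPM in those labelled wild type 1 to 4. The groups lay far apart, with 840 CPM as the highest value under the IL17ra-/- label and 1496 CPM as the lowest under wild type. The log2 fold change of Atf3 was −1.52 (SE 0.23, edgeR adjusted p = 0.00193), which leaves 0.349 of the level labelled wild type. Libraries labelled IL17ra-/- also varied more among themselves, with a coefficient of variation of 34.4% against 15.3% in those labelled wild type. This difference in spread was not tested.

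Of the small MAF genes, Maff passed the test and Mafk did not. Maff (chr15:79346621-79359076), a small MAF gene that inflammatory signals and stress induce, stood at 47.5, 67.7, 43.8, 74.9 and 75.5 CPM in the libraries labelled IL17ra-/-, against 133, 204, 125 and 124 CPM in those labelled wild type. The groups did not overlap, and the library labelled wild type 2 stood above its group (−1.24, SE 0.20, adjusted p = 0.00284; −1.03 without that library, adjusted p = 0.00274). Mafk (chr5:139791513-139802653), whose protein pairs with NRF2 and BACH proteins, stood at 79.6, 87.5, 64.1, 108 and 80.0 CPM in the libraries labelled IL17ra-/-, against 124, 124, 121 and 102 CPM in those labelled wild type. The library labelled IL17ra-/- 4 reached above wild type 4, and Mafk did not pass (−0.49, SE 0.14, adjusted p = 0.0742). It did pass when the library labelled IL17ra-/- 4 was left out (−0.60, adjusted p = 0.0273) and in DESeq2 (adjusted p = 0.0168). Mafk shares 4.33% of its exon bases with Tmem184a on the other strand, which did not pass (0.31, edgeR adjusted p = 0.809).

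**Figure D2:**
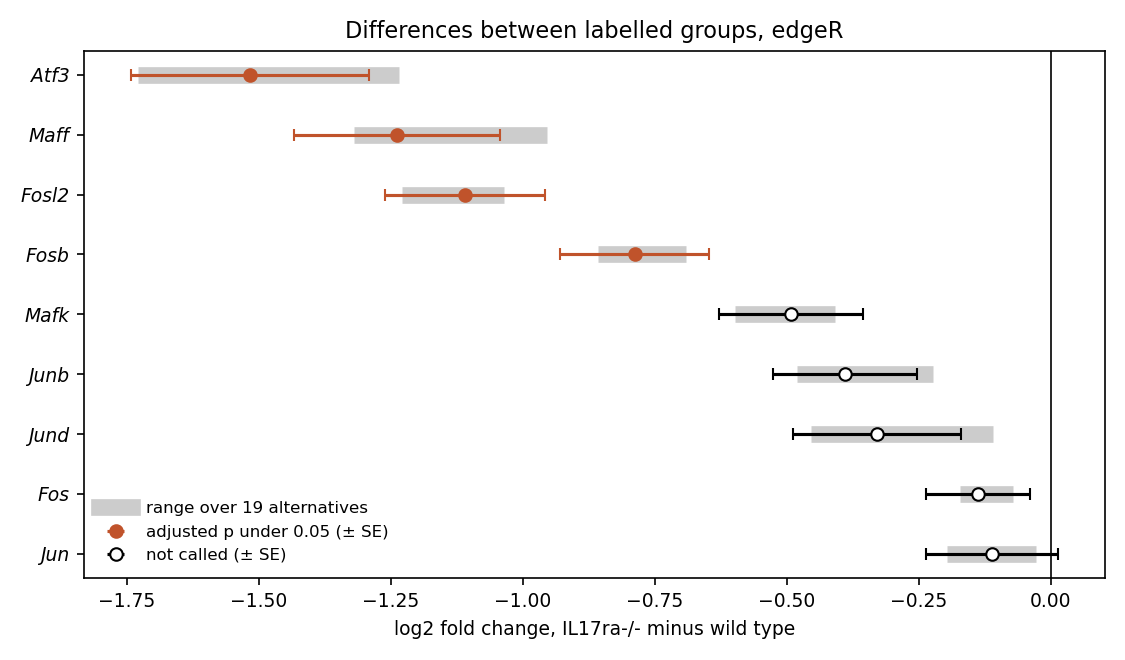
Log2 fold change, IL17ra-/- minus wild type (horizontal axis), of the 9 members detected in every library, with the SE as whiskers. Filled points passed at an adjusted p under 0.05 and grey bars span 19 alternative settings. Values run from −1.52 for Atf3 to −0.11 for Jun, and no grey bar reaches 0.

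Whether members of a subfamily moved by different amounts was tested with the log2 ratio of counts within each library, which needs no scaling between libraries. The ratio of Fosb to Fos was −1.25 ± 0.20 (SD, n = 5) in libraries labelled IL17ra-/- and −0.59 ± 0.10 (SD, n = 4) in those labelled wild type, a difference of −0.66 (two-sided exact permutation p = 0.0159, adjusted p = 0.0317 over 6 pairs). For Fosl2 to Fos the ratio was −5.19 ± 0.30 in libraries labelled IL17ra-/- and −4.19 ± 0.16 in those labelled wild type, a difference of −0.995 with the same exact p-values. Mafk to Maff gave 0.45 ± 0.25 in libraries labelled IL17ra-/- and −0.28 ± 0.31 in those labelled wild type, a difference of 0.74, again at exact p = 0.0159 and adjusted p = 0.0317. In each of these 3 pairs the groups did not overlap, and 0.0159 is the smallest exact permutation p that the 126 splits can give. Each of the 3 sets a member called lower against one not called, so that these p-values add no separate support for the calls. The pairs were also chosen with earlier results of these data known, so that the p-values are descriptive only. All libraries labelled IL17ra-/- held more Mafk than Maff counts, and all labelled wild type held fewer.

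The other pairs did not pass, with differences of −0.28 for Junb to Jun (exact p = 0.0794, adjusted p = 0.119), −0.19 for Jund to Jun (exact p = 0.571) and −1.61 for Fosl1 to Fos (exact p = 0.302). The Jund to Jun difference rested on the library labelled wild type 2 and was 0.02 without it. With 1 library fewer there are too few splits for 3 pairs alone to pass the exact permutation test (adjusted p = 0.0571 or 0.0714), and the sizes stayed at −0.72 to −0.59 for Fosb to Fos, −1.11 to −0.92 for Fosl2 to Fos and 0.59 to 0.83 for Mafk to Maff. Without the library labelled IL17ra-/- 5, Junb to Jun reached the smallest p too (−0.30), and all 4 pairs passed (exact permutation test, adjusted p = 0.0429).

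To compare levels between genes, CPM were divided by the exon length not shared with another gene. On this scale Fos led in both groups, at 2440 ± 176 CPM per kb (SD, n = 5) in libraries labelled IL17ra-/- and 2690 ± 184 CPM per kb (SD, n = 4) in those labelled wild type. Under the IL17ra-/- label the order of mean levels went on with Jun (880 CPM per kb), Junb (842), Jund (450), Fosb (392), Atf3 (272), Maff (23.9), Mafk (22.4), Fosl2 (16.6) and Fosl1 (0.346). Under the wild type label it went on with Junb (1100 CPM per kb), Jun (950), Atf3 (779), Fosb (676), Jund (566), Maff (56.3), Fosl2 (35.7), Mafk (31.6) and Fosl1 (0.872). Atf3, at 272 ± 93.5 CPM per kb in libraries labelled IL17ra-/- and 779 ± 120 CPM per kb in those labelled wild type, was in place 6 with the IL17ra-/- label and in place 4 with the wild type label. Ranges of neighbouring genes overlapped at most steps of these orders. The steps without overlap were Fos to Jun, Junb to Jund, Atf3 to Maff and Fosl2 to Fosl1 under IL17ra-/-. Under wild type they were Fos to Junb, Jund to Maff, Maff to Fosl2 and Mafk to Fosl1.

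Fos made up 83.5 to 88.0% of the summed FOS level in libraries labelled IL17ra-/- and 78.1 to 80.4% in those labelled wild type. Fosb made up 11.4 to 15.8% in libraries labelled IL17ra-/- and 18.6 to 20.9% in those labelled wild type. Fosl2 made up 0.489 to 0.755% in libraries labelled IL17ra-/- and 0.934 to 1.24% in those labelled wild type. The groups did not overlap for any of these 3 shares, which follow from the values given above and were not tested. In the JUN subfamily, Jun held 39.8 to 41.3% with the IL17ra-/- label and 28.4 to 40.6% with the wild type label, the low end being the library labelled wild type 2. The summed FOS level was 1.24 to 1.43 times the summed JUN level in libraries labelled IL17ra-/- and 1.00 to 1.6 times in those labelled wild type.

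**Figure D3:**
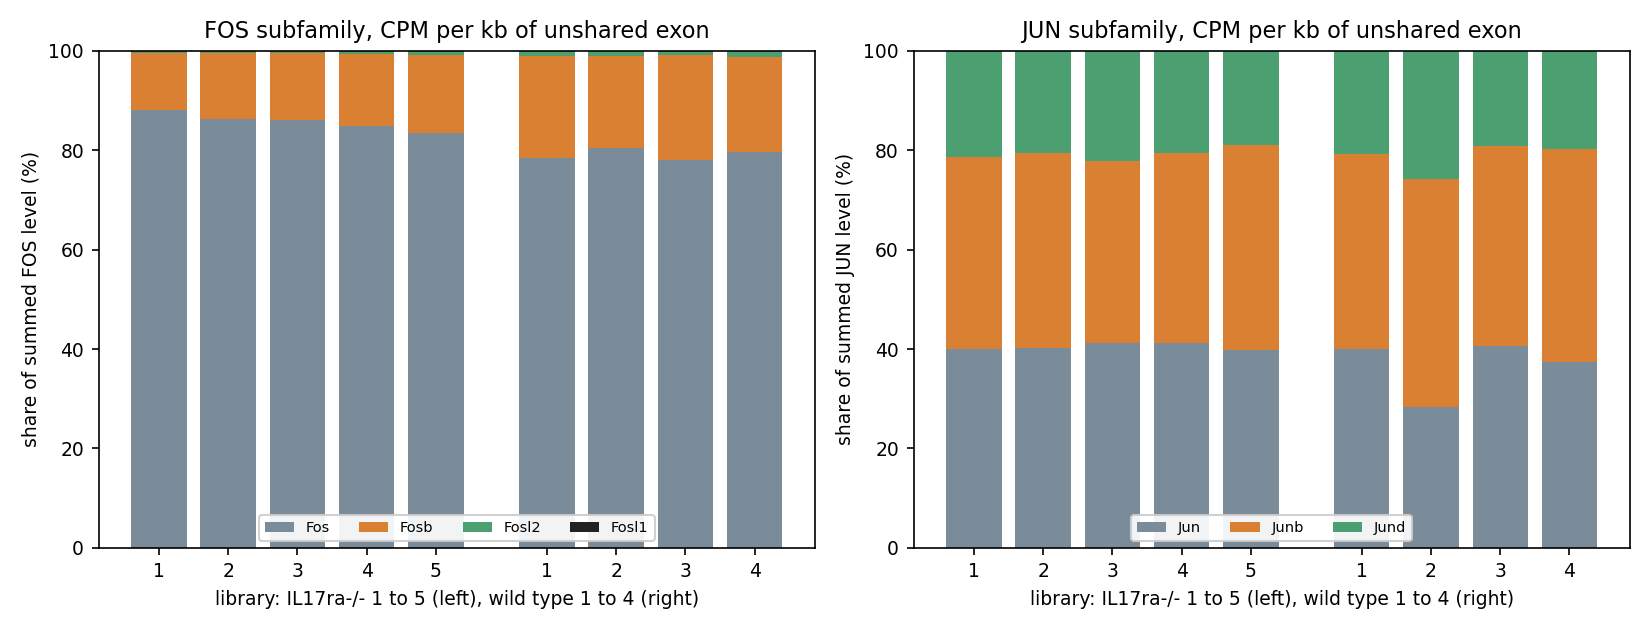
Share of each gene (percent, vertical axis) in the summed level of the FOS genes (left panel) and of the JUN genes (right panel), from CPM per kb of unshared exon, with 1 bar per library and IL17ra-/- left of wild type in each panel. Fosb takes 11.4 to 15.8% of the FOS level in IL17ra-/- bars and 18.6 to 20.9% in wild type bars.

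Libraries differed in how the members sat within their group. Among the 9 members detected in every library, the library labelled IL17ra-/- 1 was the lowest of its group for 5, namely Fos, Fosb, Fosl2, Jun and Atf3. The library labelled wild type 2 was the highest of its group for Junb, Jund, Atf3 and Maff and the lowest for Fos, Fosb and Fosl2. With both libraries left out the 4 calls stayed, at log2 fold changes of −1.23 for Atf3, −0.95 for Maff, −1.08 for Fosl2 and −0.76 for Fosb, and adjusted p-values up to 0.00461.

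**Figure D4:**
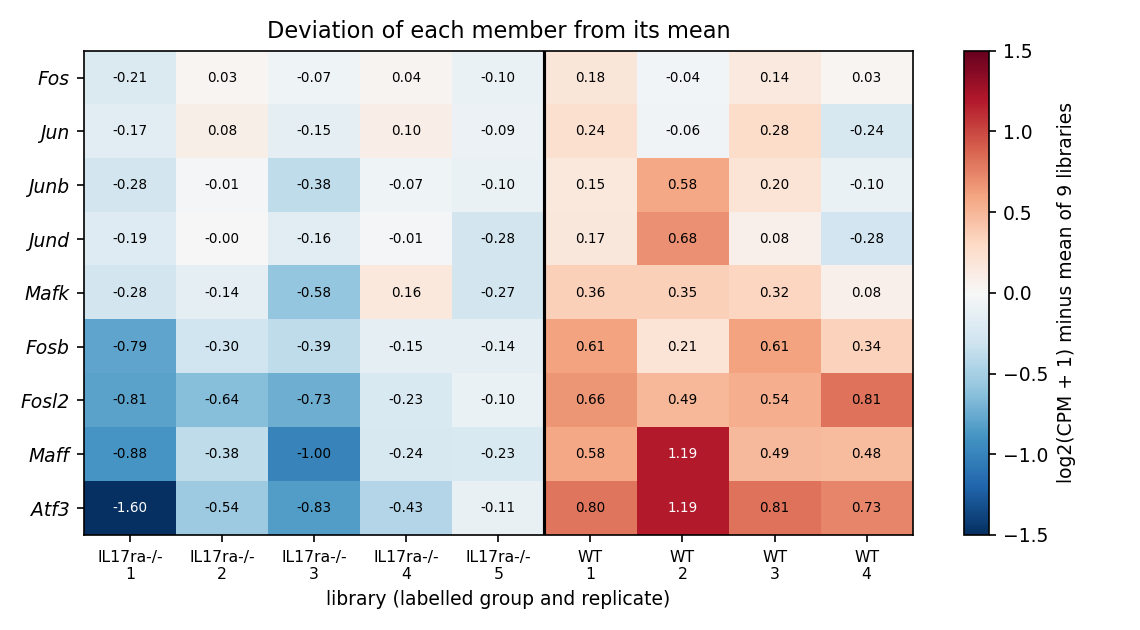
Deviation of log2(CPM + 1) from the mean of the 9 libraries (colour and printed value) for the 9 members detected in every library (rows), in libraries labelled IL17ra-/- 1 to 5 (left of the line) and wild type 1 to 4 (right). Rows of Fosb, Fosl2, Maff and Atf3 are negative in all IL17ra-/- columns and positive in all wild type columns.

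Several other proteins with the same type of zipper pair with AP-1 members or compete with them. Of 27 tested genes of such partners and relatives, 5 were lower in the libraries labelled IL17ra-/- and none was higher, against 1.71% of all tested genes lower and 1.35% higher, with a list median of −0.03. The 5 were Nfil3, a repressor of transcription (−1.53, adjusted p = 5.81e-04), the gene Ddit3 of the stress factor CHOP (−1.41, adjusted p = 0.00416), Crem, a modulator of cAMP responses (−1.20, adjusted p = 9.64e-04), Atf4, the effector of the integrated stress response (−0.87, adjusted p = 0.00121), and Cebpd (−0.69, adjusted p = 0.0327). Atf4 averaged 348 ± 49.0 CPM in libraries labelled IL17ra-/- and 637 ± 58.2 CPM in those labelled wild type. The remaining 22 did not pass.

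Of 32 genes of MAP kinases, serum response factor and its cofactors, which act upstream of AP-1 genes, 1 was lower and 2 were higher, and the list median was 0.02. Calls made up 9.38% of this list, against 3.06% of all tested genes, a share that rests on few genes. Map3k8, the kinase TPL2 that activates the ERK pathway in inflammation, averaged 16.6 ± 2.94 CPM (SD, n = 5) in libraries labelled IL17ra-/- and 45.7 ± 3.32 CPM (SD, n = 4) in those labelled wild type (−1.46, SE 0.14, adjusted p = 1.11e-04). Mef2c, a transcription factor of muscle and other cells (0.79, adjusted p = 0.00411), and Map2k4, a kinase that activates JNK (0.58, adjusted p = 0.0256), were higher. Among 17 regulators of FOS and JUN proteins, only Trib1, a pseudokinase that recruits the ubiquitin ligase COP1, passed. It fell by 1.14 on the log2 scale (edgeR adjusted p = 2.17e-04). This single call is 5.88% of the list, near the 3.06% of all tested genes.

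Of 30 tested genes known to have AP-1 sites, 8 were lower and none was higher (list median −0.35). Calls made up 26.7% of this list, against 3.06% of all tested genes. Among those with the smallest p were Hbegf, a ligand of the EGF receptor (−1.5, adjusted p = 1.63e-04), the metallothionein genes Mt2 (−1.51, adjusted p = 0.00233) and Mt1 (−1.26, adjusted p = 0.00995), and the chemokine gene Cxcl1 (−1.24, adjusted p = 0.00907). Hbegf averaged 10.8 ± 1.8 CPM (SD, n = 5) in libraries labelled IL17ra-/- and 30.6 ± 3.71 CPM (SD, n = 4) in those labelled wild type. Many other factors act on these genes too, and whether AP-1 bound them here was not measured.

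Of 34 tested early response genes outside AP-1, 17 were lower and 1, the Krüppel-like factor gene Klf10, was higher (0.63, edgeR adjusted p = 0.0442). The list median was −0.69, and 52.9% of the list were called, against 3.06% of all tested genes. The 5 with the smallest p were the interferon regulatory factor gene Irf1 (−1.89, adjusted p = 1.50e-04), the antiproliferative gene Tob1 (−1.12, adjusted p = 2.58e-04), the gene of the NF-kB inhibitor Nfkbia (−1.35, adjusted p = 2.80e-04), Ier5 (−1.37, adjusted p = 3.42e-04) and the stress gene Gadd45b (−1.47, adjusted p = 5.95e-04). Of 11 heat shock genes, which heat and damaged proteins induce, 8 were lower (list median −0.99), a share of 72.7%. Among them Dnajb1, a cochaperone gene, averaged 108 ± 19 CPM in libraries labelled IL17ra-/- and 330 ± 54.2 CPM in those labelled wild type (−1.61, adjusted p = 1.11e-04), and Bag3 (−1.06), Dnaja1 (−1.18), Hsph1 (−1.06) and Hsp90aa1 (−0.94) had adjusted p-values up to 0.00158. These stress transcripts and some markers of several cell types moved with the labels too, among them the muscle fibre markers, Cd68 and Pi16 given above. Mural cell markers summed to 1990 to 2630 CPM in libraries labelled IL17ra-/- and 1330 to 1580 CPM in those labelled wild type, with 4 of 6 higher, and satellite cell markers to 296 to 402 CPM in libraries labelled IL17ra-/- and 184 to 274 CPM in those labelled wild type, with 2 of 6 higher. Schwann cell markers summed to 587 to 700 CPM in libraries labelled IL17ra-/- and 817 to 1060 CPM in those labelled wild type, with 1 of 6 lower. That gene, Pmp22 (−0.48, edgeR adjusted p = 0.0229), made up most of the sums. It averaged 443 CPM in libraries labelled IL17ra-/- and 618 CPM in those labelled wild type. Of the 6, 5 had negative log2 fold changes, and Sox10 was at 0.10 and did not pass. Adipocyte markers summed to 28 to 111 CPM in libraries labelled IL17ra-/- and 25.5 to 64.4 CPM in those labelled wild type, and 1 of 6, Adipoq, was higher (1.89, edgeR adjusted p = 0.0449). Their part in the differences of the AP-1 genes was not tested.

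**Figure D5:**
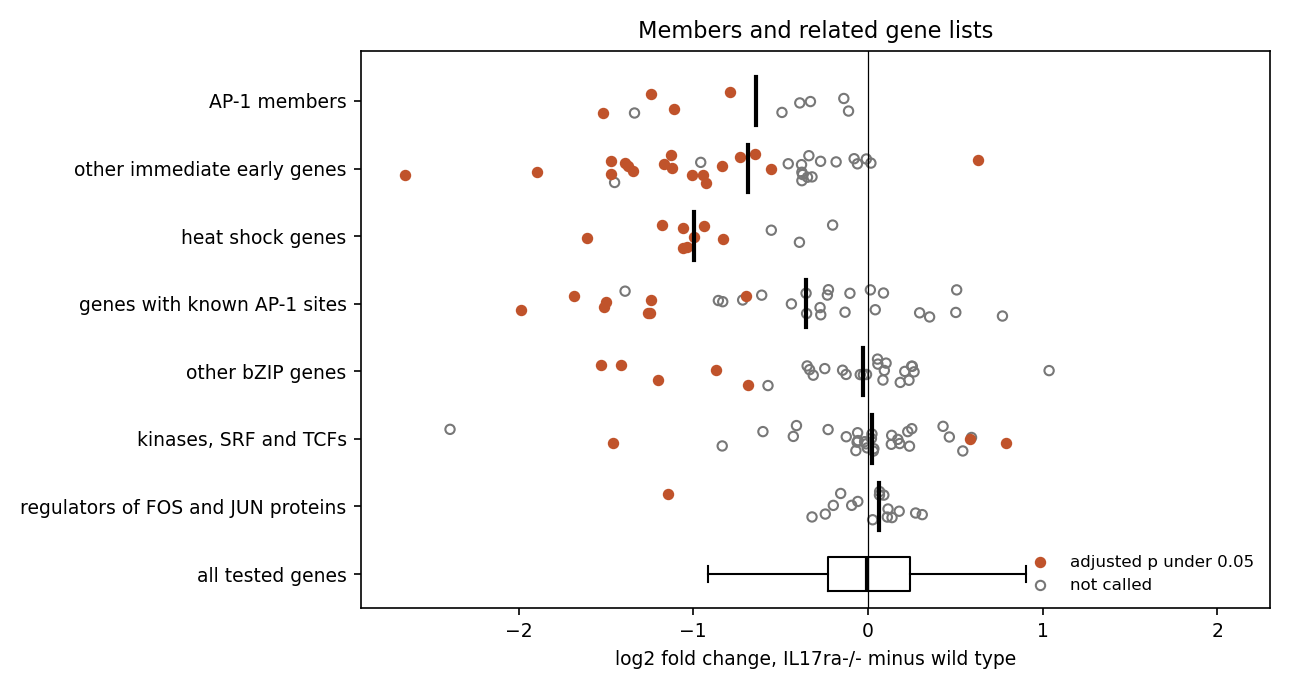
Log2 fold change, IL17ra-/- minus wild type (horizontal axis), of the tested genes of each list (1 point per gene, spread vertically at random, filled where the adjusted p was under 0.05), with the list median as a black bar. The box at the bottom spans the quartiles of all 16039 tested genes and its whiskers the 5th to 95th percentile. The AP-1 median of −0.64, which includes the barely detected Fosl1, lies between those of the other early response genes (−0.69) and of the genes with AP-1 sites (−0.35).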

How the data were processed

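Per the labels' protocols, RNA was taken up in TRIzol, purified on RNeasy columns and made into TruSeq v2 libraries, which do not mark strand. The submitters' processing notes name STAR. The deposited values are raw counts of read pairs for each gene, and the file headers record featureCounts 1.6.0 over exons of GENCODE M21 (GRCm38) without strand, so that reads on exon bases of 2 genes count for neither. All 55536 gene identifiers matched that annotation. Genes were filtered with filterByExpr, scaled with TMM and tested with edgeR 4.0.16 (quasi-likelihood, genotype label as the only term, 9 libraries, two-sided, Benjamini-Hochberg over 16039 genes, threshold 0.05). SEs are the fold change over the square root of F, and intervals assume a normal distribution, which is too narrow here. The fitting procedure was also run on simulated counts with known changes, drawn with the spread of these data and without outlying libraries. That run does not test the calls made here. Ratios used 0.5 added counts and the exact permutation test. P-values measure the spread between these libraries.

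Members, gene lists and tests were chosen with earlier results of these data known, so that lists are described by counts and medians and have no test. Named genes were all members, Il17ra, up to 5 passing genes with the smallest p of each list (1 of them is not reported here), and for each called member the 3 genes of at least 1 CPM with the smallest root mean square difference of centred log2(CPM + 1). Klf10 and the overlapping neighbours were named after their values were seen. Replicates of a group were distinct libraries, with chi-square per degree of freedom of at least 29.5 between any 2. The alternatives were other scalings, filters and tools, a replicate block, and fits with libraries left out.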

Additional observations from a re-analysis of the deposited data

Results flagged for a closer look

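A library far from the rest of its group was looked for in 22 sets of values, the CPM of the 10 members and Il17ra in each labelled group, and chance gives about 1 in 20. There were 4. The library labelled IL17ra-/- 4 had Il17ra at 284 CPM, against 181 to 200 CPM in the other libraries with that label. The library labelled wild type 2 had Atf3 at 2060 CPM, against 1500 to 1580 CPM in the other 3 of its group, and Maff at 204 CPM, against 124 to 133 CPM. Both calls stayed without that library. The library labelled wild type 4 had Mafk at 102 CPM, against 121 to 124 CPM in the other 3.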

How the results depend on the processing

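Over 19 alternatives the calls of Atf3, Maff, Fosl2 and Fosb stayed and no member changed direction (for Fosl1 over 17); the smallest falls were −1.23, −0.95, −1.04 and −0.69 and the highest adjusted p-values 0.00957, 0.011, 0.00543 and 0.0302. The number of members called was 4 to 5. Mafk was called by DESeq2 (−0.491), and its log2 fold change was −0.60 to −0.41 with 1 library left out. Over all genes 491 were called, 1026 by DESeq2 and 275 to 567 with 1 library left out, the lowest counts being 275 without the library labelled IL17ra-/- 3 and 323 without IL17ra-/- 1. They were 217 higher and 274 lower (55.8% lower), and with library totals only 330 higher and 232 lower (41.3% lower). DESeq2 called 5 genes of the kinase and serum response factor list. With both the libraries labelled wild type 2 and IL17ra-/- 1 left out, the ratio differences of Fosb to Fos, Fosl2 to Fos and Mafk to Maff were −0.625, −0.962 and 0.519 (exact permutation test, adjusted p = 0.114, with too few splits to pass), and Jund to Jun was 0.003. With 1 library left out they were −0.72 to −0.59, −1.11 to −0.92, 0.59 to 0.83 and −0.29 to 0.019 (0.019 without wild type 2), and Junb to Jun was −0.36 to −0.12. Deviations from the group means correlated at −0.017 to 0.056 between equal replicate numbers 1 to 4, and 2 of 4 correlated best with their own. A pairing by these numbers was thus neither shown nor excluded, with the libraries labelled wild type 2 and IL17ra-/- 1 standing apart. With a replicate block 366 genes were called and 4 members, against 417 genes without IL17ra-/- 5 and without the block, and no member's call changed. Depth limits only Fosl1 among the members.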

Other observations

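Some genes outside the AP-1 family followed a called member closely over the 9 libraries, by the root mean square difference of centred log2(CPM + 1). For Fosb the nearest were Hnrnph1, which encodes an RNA-binding protein of splicing (difference 0.058), Klf4, a Krüppel-like factor (0.11), and Plk3, a stress-responsive kinase gene (0.123), beside an SD of Fosb itself of 0.475. Near Fosl2 were Tra2a, another splicing factor gene (0.126), Enc1 (0.147) and Wsb1 (0.151), beside an SD of 0.641. Near Atf3 were Gadd45b (0.149), Bcl3, a co-regulator of NF-kB (0.183), and Nfil3 (0.197), beside an SD of 0.935. Maff had Csrnp1 (0.154), Tnfsf9, a gene of a TNF family ligand (0.174), and Cxcl1 (0.191), beside an SD of 0.729. These are descriptions of 9 libraries, all of which share the split by label.

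Within the family, Fos and Jun lay closest to each other (difference 0.112), followed by Junb and Jund (0.128), and Jun and Atf3 lay farthest apart (0.835). This difference is not scaled to a gene's own spread, so that genes that vary little lie close without varying together. Centred values ran only from −0.214 to 0.176 for Fos and from −0.241 to 0.278 for Jun. The SD of Atf3 itself was 0.935.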
